A study of Mus musculus with 15 samples.

Results

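The lens of the mouse embryo at stage E14.5, counted in days of embryonic life, was compared with the whole embryo, gene by gene, in 6 of the 15 RNA-sequencing libraries of the series: 3 libraries of lens E14.5 and 3 labelled whole body, chosen by their labels. All animals were wild type mice of the C57BL/6NTac strain and none was treated. Each lens E14.5 library was made from a pool of 18 microdissected lenses, so a library averages over several embryos and over both cell types of the lens. The whole-body libraries came from complete embryos and are labelled with the age range E10.5 to E12.5, without saying which age or mixture each library holds. The whole embryos were therefore younger than the lenses by at least 2 days, and the part of tissue and the part of age in a difference cannot be told apart. The lens libraries of E12.5 and E16.5, also 3 each and from pools of 29 and 17 lenses, served to place E14.5 among the neighbouring lens stages.

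The lens is built of an anterior sheet of dividing epithelial cells and of fibre cells that stop dividing, elongate, fill with crystallin proteins and later lose their nuclei and organelles. Around E14.5 the primary fibres have filled the lens vesicle and secondary fibres are beginning to form at the equator. Fibre genes are driven by a small set of transcription factors, among them the large Maf protein c-Maf, Sox1, Prox1, Pax6 and Hsf4, and by growth factors of the fibroblast growth factor (FGF) family from the vitreous side. A whole embryo serves in such a comparison as a mixed reference in which blood, muscle, nervous system, skeleton and the other tissues are all present and lens makes up a very small part.

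Values are normalised counts: sequenced fragments assigned to a transcript, multiplied by 1 factor per library. They are not divided by transcript length, so a long transcript gives more fragments than a short one, and values are compared here between libraries for the same gene and not between genes. A single fragment, read from the spacing of low values, was worth 0.087 to 0.1204 in the lens E14.5 libraries and 0.0372 to 0.0399 in whole body. A gene's value is the sum over its transcripts. Differences are given as lens E14.5 minus whole body on log2(normalised count + 1) with the standard error (SE) from limma, a linear model fitted over all tested genes, and p-values adjusted by Benjamini-Hochberg. On this scale the difference of a gene near 0 is understated and depends on the added 1. For a gene listed at 0 in every library of a group, the levels and the adjusted p are given without a fold. These are bulk libraries, so fewer cells of a type and less RNA per cell cannot be told apart. The labels call the libraries biological replicates without naming litters. The fit took the spread from all 15 libraries of the series, also those of the other lens stages. SE and p-values therefore measure that spread between libraries, and not the spread of the 6 compared libraries alone.

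The sequences that lie just upstream of the crystallin genes, the genes with the largest differences of all, are shown first. The 6 gamma-crystallin genes Cryga to Crygf sit on mouse chromosome 1, with Crygf apart from the others. The 110 bases before each RefSeq start (GRCm38.p6, 5′ to 3′ on the gene's own strand) are printed with 2 stretches in capitals, TTTGTG and the TATA-like TATATA. Both letter strings were picked after these windows had been read.
Cryga, chr1:65103364-65103473, minus strand: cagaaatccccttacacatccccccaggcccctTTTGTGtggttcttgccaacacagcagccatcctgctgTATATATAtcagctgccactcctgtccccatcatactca
Crygb, chr1:65082291-65082400, minus strand: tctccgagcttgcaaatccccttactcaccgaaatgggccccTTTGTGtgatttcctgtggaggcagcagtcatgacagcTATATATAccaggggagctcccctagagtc
Crygc, chr1:65073533-65073642, minus strand: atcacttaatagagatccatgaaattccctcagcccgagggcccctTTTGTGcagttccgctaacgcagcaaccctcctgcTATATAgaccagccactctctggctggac
Crygd, chr1:65063441-65063550, minus strand: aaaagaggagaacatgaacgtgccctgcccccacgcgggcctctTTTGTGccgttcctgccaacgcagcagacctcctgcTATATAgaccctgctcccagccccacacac
Cryge, chr1:65051164-65051273, minus strand: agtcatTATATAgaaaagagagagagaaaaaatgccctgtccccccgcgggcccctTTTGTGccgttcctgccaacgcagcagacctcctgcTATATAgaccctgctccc
Crygf, chr1:65926412-65926521, plus strand: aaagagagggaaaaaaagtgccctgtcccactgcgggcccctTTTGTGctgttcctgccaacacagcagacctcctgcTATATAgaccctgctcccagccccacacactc

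All 6 windows held TTTGTG followed by TATATA, and that of Cryge held a further TATATA upstream of both. In the 250 bases upstream of all 32851 RefSeq starts, TTTGTG was found on either strand in 15.6% of windows and TATATA in 5.25%.

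A second group of windows is shown for the letters TGCTGA, the core that large Maf proteins are known to recognise. The 140 bases upstream are given for the alpha-crystallin Cryaa, for 2 beta-crystallins and for the start of Capn3 that the lens uses, with TGCTGA in capitals.
Cryaa, chr17:31677791-31677930, plus strand: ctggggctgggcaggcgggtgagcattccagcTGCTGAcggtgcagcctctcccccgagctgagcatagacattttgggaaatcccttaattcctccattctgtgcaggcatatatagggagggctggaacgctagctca
Crybb1, chr5:112255680-112255819, plus strand: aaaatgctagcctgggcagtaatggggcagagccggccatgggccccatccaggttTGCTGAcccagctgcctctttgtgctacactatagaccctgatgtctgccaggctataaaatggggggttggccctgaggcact
Cryba4, chr5:112252519-112252658, minus strand: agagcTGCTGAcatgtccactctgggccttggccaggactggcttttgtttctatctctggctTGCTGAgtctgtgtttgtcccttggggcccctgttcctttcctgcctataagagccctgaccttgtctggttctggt
Capn3, chr2:120476769-120476908, plus strand: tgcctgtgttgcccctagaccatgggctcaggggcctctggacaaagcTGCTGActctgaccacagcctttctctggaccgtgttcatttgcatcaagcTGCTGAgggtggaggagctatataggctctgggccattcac

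Each window printed for TGCTGA holds the letters, so the windows are examples and show no share. TGCTGA was present on either strand within 250 bases upstream in 10 of the 15 crystallin genes with a RefSeq window. Among the 6 genes Cryga to Crygf it was present in 2. The share over all windows was 16.1%. Among genes with a window it was 15.4% of those tested, 17% of those called higher in the lens by at least 2-fold and 15.6% of those called lower by at least 2-fold. It was present in 27 of the 80 whose log2 difference was at least 5, a group that includes crystallins counted above. A match describes these letters and shows neither a bound site nor a cause.

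Of 14532 genes tested, 5187 (35.7%) were called higher in lens E14.5 and 6188 (42.6%) lower at an adjusted p under 0.05. With a minimum of 2-fold the counts were 2390 (16.4%) higher and 3684 (25.4%) lower, and the median difference over all genes was −0.099. The libraries of the groups did not overlap for 5411 genes (37.2%) that were higher and 6491 (44.7%) that were lower. The largest differences were on the lens side. Counting fitted values, also of genes listed at 0 in a group, a log2 difference of at least 10 was reached by 18 genes that were higher and 0 that were lower, and of at least 8 by 27 and 1, whereas at 4 the lower genes were more numerous, 309 against 209. Pearson's r of log2(normalised count + 1) over all genes was 0.990 to 0.992 within lens E14.5, 0.993 to 0.994 within whole body and 0.725 to 0.733 between them. The totals divided by the worth of a fragment gave 11600000 to 14800000 fragments for the lens E14.5 libraries and 17700000 to 19800000 for whole body, over the transcripts in the table. How many genes count as higher depends on the scaling. With the crystallins left out and the remaining totals made equal, 1551 genes were higher by 2-fold against 4896 lower, and the overall median shifted by −0.42. Higher genes then made up 24.1% of the 2-fold calls instead of 39.3%. Under quantile normalization they made up 49.1%, with a median shift of 0.114. The counts of the gene lists below are to be read against 35.7% higher and 42.6% lower over all genes.

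**Figure D1:**
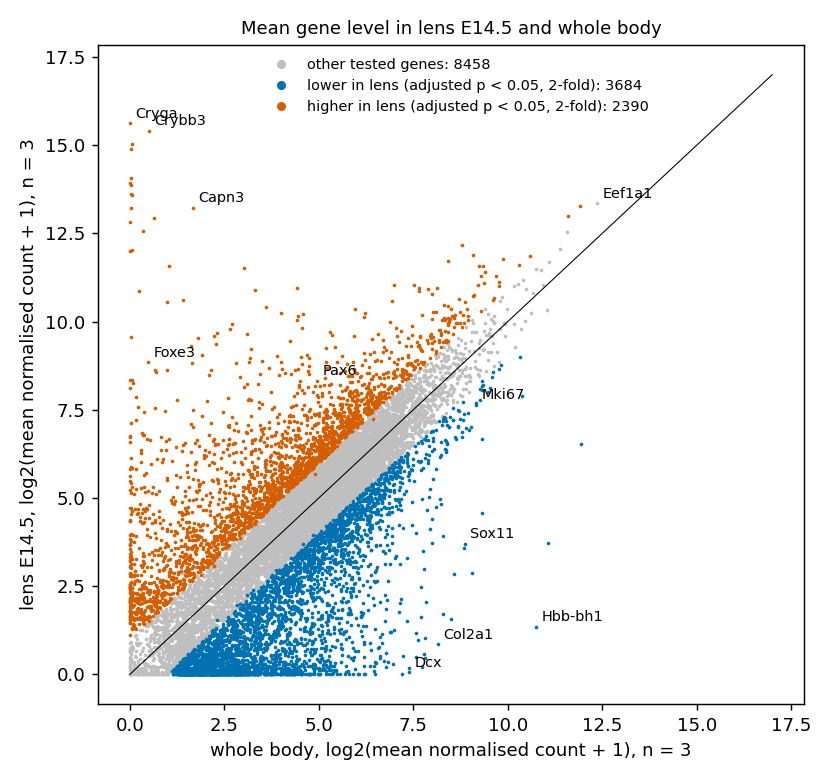
Mean level of each tested gene in whole body (x axis) and lens E14.5 (y axis), both as log2(mean normalised count + 1) with 3 libraries each. Orange marks the 2390 genes called higher and blue the 3684 called lower by at least 2-fold; crystallins lie along the left edge, where the whole body is at or near 0.

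Crystallins, the soluble proteins that give the lens its refractive power, made up 30.1%, 25.3% and 25.2% of all fragments of the 3 lens libraries and about 0.001% of those of each whole-body library. With each value divided by transcript length the lens shares were 48.8%, 47.9% and 46.4%. In the lens, 152, 234 and 250 genes held 50% of the fragments, compared with 1295 to 1328 genes in the whole embryo. Cryaa enters these shares and gene numbers in replicate 1 only, because replicates 2 and 3 list it at 0, a failed estimate. The lens libraries are therefore not directly comparable in them, and the crystallin shares of replicates 2 and 3 lack Cryaa. All 14 crystallins that could be tested were higher (14 of 14, against 35.7% of all genes), 5 of them listed at 0 in all whole-body libraries. For the 9 with a value above 0 in at least 1 whole-body library the median log2 difference was 13.83, with a range from 8.51 for Cryab to 14.97 for Cryge.

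Cryga, a gamma-crystallin of the fibre core, was at 42045, 56983 and 52595 normalised counts in the lens libraries and listed at 0 in all 3 of the whole body (adjusted p = 7.84e-16). The related Cryge was at 30552, 35432 and 34501 normalised counts against 0.04 in each whole-body library, a log2 difference of 14.97 (SE 0.20, adjusted p = 1.98e-16). The groups did not overlap for either gene. Crygd was at 15880, 18055 and 13044 normalised counts and Crygc at 7045, 7581 and 7084 normalised counts, both listed at 0 in all whole-body libraries. Cryge and Crygf transcripts were 96.2% identical over their aligned bases and Crygd and Cryge 91.4%, so reads can be split between these copies and the level of each single gene is uncertain. The other pairs among Cryga to Crygf were between 78.0% and 90.6% identical.

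Among the beta-crystallins, Crybb3 reached 44229, 43947 and 42651 normalised counts against 0.38, 0.53 and 0.35 in whole body (log2 difference 14.91, SE 0.20, adjusted p = 1.98e-16). Crybb1 was at 25623, 31896 and 34263 normalised counts against 0.04, 0 and 0.04. Cryba1 was at 83497, 81759 and 78722 normalised counts against 0.11, 0.28 and 0.23. Cryba1 was left out of the fit of all groups because a replicate of another lens stage is listed at 0, and in a fit of these 6 libraries alone its log2 difference was 16.04 (SE 0.08, adjusted p = 3.71e-14). Crybb2, which in mice is known as a crystallin of the later and postnatal lens, was at 10.72, 11.97 and 12.58 normalised counts in the lens and 0 in whole body (adjusted p = 3.17e-09).

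The alpha-crystallins are small heat shock proteins that hold other proteins in solution. Cryaa was listed at 111417 normalised counts in lens E14.5 replicate 1 and at 0 in replicates 2 and 3. Zeros beside such a level are failed estimates, so Cryaa was not tested and its mean is not given. Cryab was at 2674, 3019 and 3121 normalised counts against 6.93, 7.42 and 6.77, a log2 difference of 8.51 (SE 0.14, adjusted p = 6.33e-16). Of its lens value 99.5% came from assembled transcripts that differ from the annotated ones in at least 1 junction. Crygs, the gamma-crystallin of secondary fibres, was at 266, 285 and 284 normalised counts, and Crygn at 4012, 4394 and 4146 normalised counts. The plot of crystallin and fibre genes by library shows that 15 of the 16 crystallins varied little among the lens libraries and that Cryaa is the exception.

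**Figure D2:**
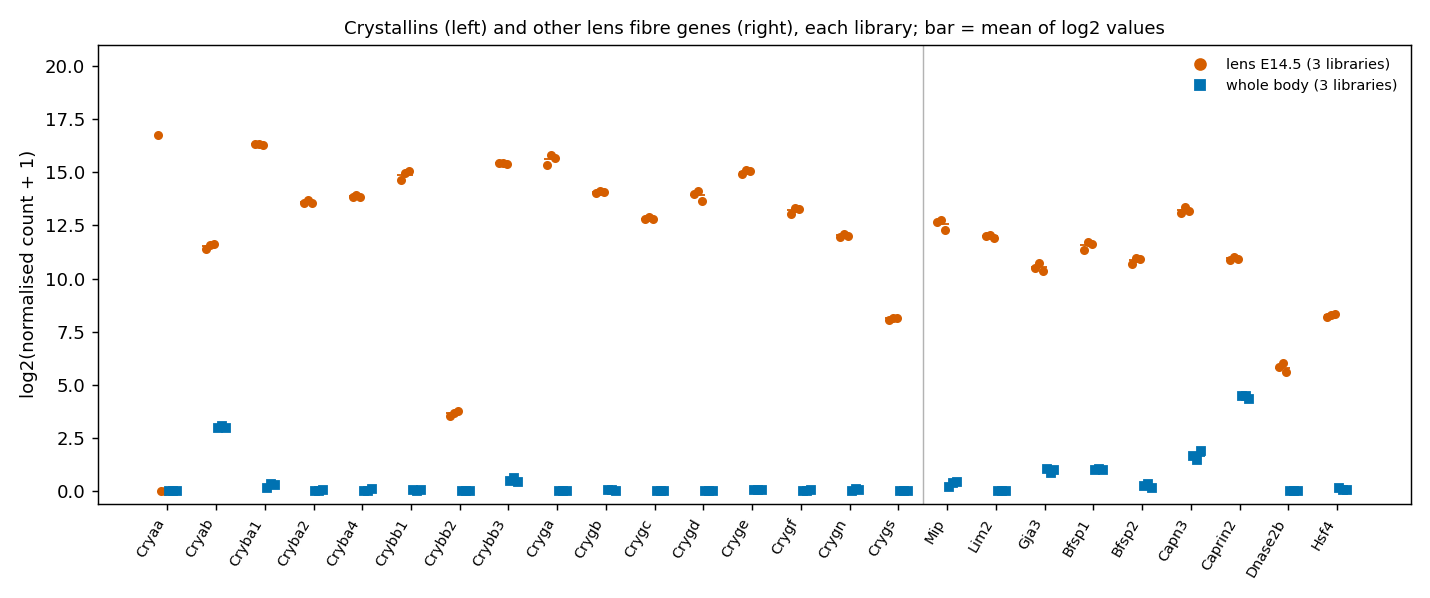
Level of the 16 crystallins (left of the grey line) and of 9 other fibre genes (right) as log2(normalised count + 1), which is not scaled for length, with 1 point for each of the 3 lens E14.5 (orange circles) and 3 whole-body libraries (blue squares) and a bar at the mean; no mean is drawn for Cryaa. For every gene but Cryaa all lens points lie above all whole-body points, which held for 37.2% of all tested genes.

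The membranes of fibre cells are joined by gap junctions and packed with a water channel. In this list 10 of 13 tested genes were higher and 3 lower (35.7% and 42.6% of all genes), with a median log2 difference of 3.04. The gap junction gene Gja3 (connexin 46) was at 1458, 1709 and 1327 normalised counts against 1.08, 0.83 and 1.0. The fibre junction protein Lim2 was at 4165, 4269 and 3799 normalised counts and listed at 0 in every whole-body library. Mip, the water channel aquaporin 0, was at 6383, 6914 and 5030 normalised counts against 0.15, 0.32 and 0.35 (log2 difference 12.22, SE 0.19). On the opposite strand of Mip lies Gm26847, a long intergenic RNA at chr10:128230590-128232790 that overlaps the end of Mip at chr10:128225838-128231812. Gm26847 was at 7532, 8574 and 7415 normalised counts against 0.60, 0.56 and 0.50, but 81.7% of its value came from an assembled transcript that only overlaps the annotated exons. Whether the counting used strand is not given in the sources used here, so the reads of the pair cannot be told apart. The 3 lower members were the sodium pump subunits Atp1b1 and Atp1b2 and the adhesion molecule Ncam1, which was at 49.2, 57.1 and 47.8 normalised counts against 72.6, 72.9 and 76.6 and lost its call with values divided by transcript length (−0.05).

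The cytoskeleton list held 12 higher and 1 lower of 13 tested genes and a median of 3.93. Bfsp1 and Bfsp2, the proteins of the beaded filament that is special to fibre cells, were at 2622, 3396 and 3151 normalised counts and at 1646, 1988 and 1959 normalised counts. Their whole-body levels were 1.0, 1.08 and 1.01 normalised counts and 0.17, 0.27 and 0.12 normalised counts, which gave log2 differences of 10.55 (SE 0.20) and 10.62 (SE 0.20). Caprin2, an RNA-binding protein of fibre cells, was at 1905, 2093 and 1919 normalised counts against 20.97, 21.1 and 19. The microtubule protein gene Mapt, better known from neurons, was the lower member, with 1.79, 2.76 and 2.93 normalised counts against 36.3, 38.5 and 42.3.

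Capn3, which encodes a calcium-dependent protease with a lens isoform in rodents, was at 8785, 10649 and 9388 normalised counts against 2.12, 1.76 and 2.68 (log2 difference 11.56, SE 0.22, adjusted p = 2.92e-15). Its transcripts were assigned to 5 start groups, and 97.8% of the lens value came from the group whose first annotated start lies at chr2 position 120476918, inside the gene. This group stood at 8582, 10423 and 9182 normalised counts in the lens and at 0.42, 0 and 0.62 normalised counts in the whole embryo. The Capn3 window printed above holds TGCTGA at 92 and 41 bases upstream of the RefSeq start, which lies a few bases before the first annotated one.

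Fibre cells break down their nucleus and organelles, and the genes listed for this step were mixed. Of 16 tested, 8 were higher and 7 lower, and their median of 0.09 became −0.35 with crystallins left out of the scaling. Dnase2b, the acid nuclease that degrades fibre DNA, was at 55.9, 63.7 and 47.2 normalised counts and listed at 0 in whole body (adjusted p = 4.80e-13). Pla2g16, a phospholipase that opens organelle membranes in fibres, was at 670, 674 and 624 normalised counts against 3.76, 3.91 and 3.99, a log2 difference of 7.07 (SE 0.15). Ubb, a ubiquitin gene, was higher at 1089, 1189 and 1207 normalised counts against 189, 225 and 214. On the other side Lmnb1, which encodes a protein of the nuclear lamina, was at 93.8, 89.6 and 120 normalised counts against 413, 388 and 385. The caspase gene Casp6 was lower too, by 1.67 on the log2 scale (−1.67).

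The capsule is a thick basement membrane around the lens. Of 17 tested genes 12 were higher and 4 lower, with a median of 1.99. The collagen IV chains Col4a6, Col4a5 and Col4a2 were at 443, 553 and 379 normalised counts, 594, 753 and 501 normalised counts, and 1873, 2307 and 1771 normalised counts, with log2 differences of 4.84 (SE 0.17), 3.83 (SE 0.16) and 3.30 (SE 0.17). Nid1, a linker of laminin and collagen IV, was at 2043, 2369 and 1892 normalised counts against 122, 127 and 129. Its paralog Nid2 went the other way, at 21.2, 17.3 and 16.2 normalised counts against 74.4, 80.4 and 76.4 (−2.03, SE 0.23). Col18a1 and Agrn, further basement membrane genes, were also lower, with −2.70 and −2.49.

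Transcription factors of lens development were mostly higher, 19 of 27, with 6 lower and a median of 2.15. Foxe3, the forkhead factor of the lens epithelium, was at 399, 409 and 570 normalised counts against 0.48, 0.44 and 0.27 (log2 difference 8.35, SE 0.13, adjusted p = 4.62e-16), although 89.8% of its value came from an assembled transcript that only overlaps the annotated exon. Hsf4, the heat shock factor that acts in fibre differentiation, was at 287, 316 and 319 normalised counts against 0.11, 0.04 and 0.04. Pitx3 was at 170, 185 and 204 normalised counts against 0.26, 0.66 and 0.82. Maf, Prox1 and Sox1, which switch on crystallin genes, had log2 differences of 6.22 (SE 0.14), 5.62 (SE 0.13) and 3.78 (SE 0.16). Their lens levels were 1079, 1307 and 1217 normalised counts for Maf, 1019, 1097 and 1033 normalised counts for Prox1 and 309, 395 and 394 normalised counts for Sox1. Pax6, the eye master regulator, which the embryonic brain also expresses, was at 324, 304 and 332 normalised counts against 30.2, 28.8 and 30.7 (3.38, SE 0.06).

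The 6 lower factors were Sox2, Sox11, Meis1, Meis2, Mab21l2 and Etv4. Sox11, a factor of immature neurons and mesenchyme, was at 11.9, 10.2 and 13.8 normalised counts against 478, 453 and 459, a log2 difference of −5.17 (SE 0.19). Mab21l2, needed for lens and retina formation early on, was at 0.84, 0.74 and 0.26 normalised counts against 39.9, 35.9 and 38.1. Sox2, which starts lens formation and is also a neural stem cell gene, was at 10.83, 12.62 and 14.02 normalised counts against 87.1, 71.7 and 70.8, and 56.5% of its lens value came from a transcript that only overlaps the annotated exon.

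RNA-binding proteins that control fibre mRNAs were split. Of 16 tested, 4 were higher and 11 lower (median −0.35). The 4 higher ones stood far apart from the rest. Tdrd7, whose loss causes cataract, was at 1703, 2129 and 1854 normalised counts against 9.16, 9.7 and 8.07 (7.57, SE 0.18), and Rbm24 was at 433, 524 and 444 normalised counts against 10.98, 10.02 and 9.78 (5.37, SE 0.15). Caprin2 was given above, and Celf1 was at 1300, 1339 and 1049 normalised counts against 281, 276 and 261 (2.16, SE 0.13). Among the lower ones were Rbpms, Elavl4, Rbpms2 and the stem cell protein Lin28a, from −2.80 to −3.98.

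For FGF signalling 6 of 18 genes were higher and 9 lower, shares near those of all genes (35.7% and 42.6%). The receptor Fgfr3 was at 365, 421 and 335 normalised counts against 44.1, 46.2 and 47.9 (2.99, SE 0.21). The target Etv5 and the feedback inhibitors Spry1 and Spry2 were higher by 2.07, 1.83 and 1.67, whereas the target genes Etv4 and Dusp6 were lower, at −1.67 and −1.61. Spry1 stood at 75.4, 90.7 and 79.3 normalised counts against 23.8, 20.6 and 22.6, and Dusp6 at 31.2, 23.8 and 28.1 normalised counts against 92.2, 79.2 and 86.7.

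For Wnt signalling 7 of 30 genes were higher and 19 lower (median −1.03). Dkk3, a secreted member of the Dickkopf family, was at 1339, 1584 and 1191 normalised counts against 11.1, 11.4 and 11.2 (6.80, SE 0.15). The ligands Wnt7a and Wnt7b were higher by 3.61 (SE 0.25) and 3.46 (SE 0.16), and the secreted antagonist Sfrp1 was at 1988, 2423 and 1900 normalised counts against 188, 178 and 179. Lower were the nuclear partner of beta-catenin Lef1, with 1.68, 0.37 and 0.86 normalised counts against 40.0, 44.5 and 46.8, the ligand Wnt5a (−3.67), the receptor Fzd8 (−3.56) and the co-receptor Lrp5 (−3.41).

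For the Notch pathway 4 of 20 genes were higher and 16 lower. The ligand Jag1, known in the lens from fibre formation, was at 468, 510 and 404 normalised counts against 44.4, 44.5 and 42.5 (3.36, SE 0.10), and the glycosyltransferase Lfng was higher by 1.68. The ligands Dll1 and Dll3, which act in neural and somite tissue, were at 0.12, 0.37 and 0.62 normalised counts and 0, 0.12 and 0 normalised counts, against 32.2 to 33.9 and 15.01 to 17.8 in the whole embryo. Rfng, also a glycosyltransferase, had a difference of 0.31 that turned to −0.11 with crystallins left out of the scaling. In the bone morphogenetic protein (BMP) and TGF-beta list 22 of 27 genes were lower and 2 higher. Tgfb2, a ligand, was at 129, 164 and 140 normalised counts against 46.5, 44.3 and 47.5, and the target Id2 was higher by 0.96. Bmp4, the ligand that induces the lens earlier, was at 0, 0.09 and 0.17 normalised counts against 26.2, 28.8 and 29.6 (−4.75, SE 0.37).

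**Figure D3:**
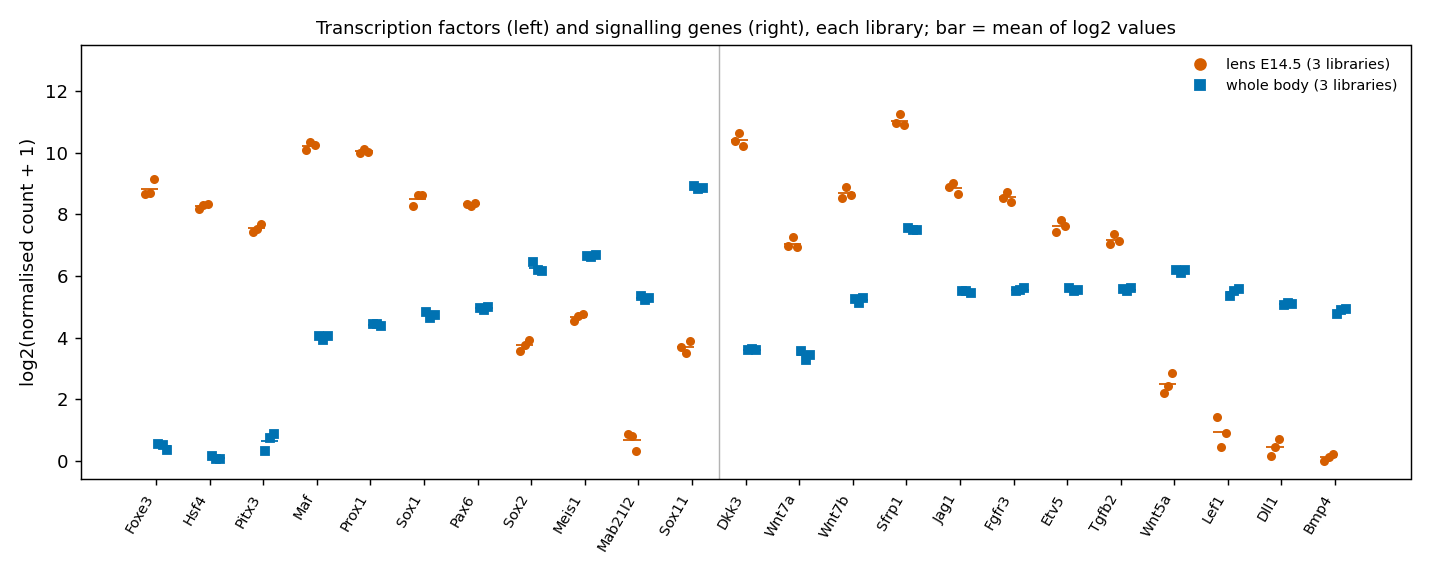
Level of 11 lens transcription factors (left of the grey line) and 12 signalling genes (right) as log2(normalised count + 1), with 1 point per library, 3 of lens E14.5 (orange circles) and 3 of whole body (blue squares), and a bar at the mean. The genes higher in the lens stand first within each part, followed by the lower ones, and the 2 groups of points do not overlap for any of the 23 genes. Over all tested genes the groups did not overlap for 37.2% that were higher and 44.7% that were lower. The 23 genes were chosen with earlier results of these data known.

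Retinoic acid is made from retinal by aldehyde dehydrogenases. Aldh1a1, which in the lens is also known as an abundant detoxifying enzyme, was at 1436, 1610 and 1629 normalised counts against 2.09, 1.4 and 1.51 (9.20, SE 0.18), and Stra6, the cellular receptor for retinol-binding protein, at 112, 113 and 123 normalised counts against 38.03, 37.21 and 37.62. In contrast 14 of the 19 genes were lower. The binding proteins Crabp1 and Crabp2 were at 0.36, 0.19 and 0.61 normalised counts and 3.97, 2.32 and 3.05 normalised counts, against 211 to 230 normalised counts and 217 to 234 normalised counts in the embryo. The degrading enzyme Cyp26b1 and the synthesizing enzyme Aldh1a2 were lower by 4.49 and 3.91 (−4.49 and −3.91).

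Genes of dividing cells were lower in the lens. All 22 DNA replication genes and all 20 mitosis genes were lower, against 42.6% of all genes, with medians of −1.48 and −1.51. Mitosis genes ranged from −2.04 to −1.07 and replication genes from −2.59 to −0.49. Mki67, the proliferation marker, was at 200, 162 and 235 normalised counts against 567, 579 and 579. The nucleotide reductase gene Rrm2 was at 55.3, 45.6 and 65.1 normalised counts against 287, 274 and 263 (−2.31, SE 0.13), and the origin protein gene Orc1 at 1.91, 2.53 and 2.43 normalised counts against 19.6, 17.9 and 18.8. Replicate 3 had the highest lens level of Mki67 and Rrm2, and no lens library reached the whole-body range. Of 10 cell cycle inhibitors and pocket proteins 5 were higher and 2 lower. Cdkn1c (p57), which holds fibres out of the cycle, was at 920, 1092 and 1236 normalised counts against 342, 300 and 321 (1.74, SE 0.12). Cdkn1b (p27) was at 70.1, 72.4 and 71.1 normalised counts against 62.8, 60.4 and 58.1, a difference of 0.23 that became −0.20 with crystallins left out of the scaling. Cdkn1a (p21) was at 2.29, 1.48 and 1.74 normalised counts against 9.72, 11.22 and 10.24.

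Organelle and protein turnover genes were mostly higher. Of 28 lysosome genes 25 were higher and 0 lower (median 1.0), and of 25 autophagy genes 19 were higher and 4 lower (median 1.07). With crystallins left out of the scaling 20 lysosome genes were higher and 5 lower, and 17 autophagy genes higher and 5 lower. The lysosomal protease gene Ctsd was at 534, 633 and 508 normalised counts against 102, 99.4 and 107, and Ctsf at 111, 141 and 103 normalised counts against 11.5, 8.78 and 10.3. The mitophagy receptor genes Optn and Bnip3l, which mark mitochondria for removal, had log2 differences of 3.80 (SE 0.14) and 2.39 (SE 0.12). Optn stood at 84.1, 103 and 90.7 normalised counts against 6.21, 5.6 and 5.25. Of 31 proteasome genes 26 were higher and 0 lower, of which Psmb5, a catalytic subunit, was at 186, 191 and 202 normalised counts against 34.5, 30.3 and 30.6. With crystallins left out of the scaling 16 proteasome genes were higher and 6 lower.

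Of 24 genes of ATP synthase and cytochrome oxidase 22 were higher and 0 lower, with a median of 1.05, and Atp5l, a subunit of the synthase, was at 190, 148 and 145 normalised counts against 45.1, 43.0 and 44.0. Translation factors were higher in 29 of 33 cases, a count that was 17 with crystallins left out and 15 under quantile normalization, with 6 and 11 lower. Splicing factors and chromatin remodelers were lower in 21 of 35 and 22 of 33 cases. Chd3, a nucleosome remodeler, was at 17.1, 13.0 and 12.3 normalised counts against 301, 313 and 322 (−4.39, SE 0.22).

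Glycolysis genes were higher in 12 of 20 cases and lower in 7. The median of 0.39 turned to −0.05 with crystallins left out and to −0.14 under quantile normalization. The glucose transporter Slc2a1 (GLUT1) was at 721, 761 and 836 normalised counts against 137, 130 and 130 (2.53, SE 0.09), while Slc2a3 (GLUT3) was at 4.21, 2.19 and 2.7 normalised counts against 69.8, 75.7 and 66.5 (−4.18, SE 0.21). Ldhb, a lactate dehydrogenase subunit, was at 3.23, 2.56 and 4.27 normalised counts against 154, 134 and 145. Aldoc was higher by 3.69 and Pfkm lower by 1.94 (−1.94). Gapdh was at 2199, 2571 and 2785 normalised counts against 658, 598 and 626, and the groups did not overlap.

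Glutathione protects lens proteins from oxidation. Of 34 antioxidant genes 15 were higher and 13 lower, shares near those of all genes, and with crystallins left out of the scaling 12 were higher and 20 lower. Gss, the enzyme of the last step of glutathione synthesis, was at 748, 833 and 816 normalised counts against 6.8, 8.11 and 7.92 (6.54, SE 0.16), the highest difference of the list. The transferase genes Gstp1 and Gstm1 were higher by 4.22 and 3.43, and the peroxidase gene Gpx1 was at 779, 661 and 616 normalised counts against 197, 178 and 206. Members of the same families were lower, among them Gpx7 (−3.11), Gsta4 (−2.72) and Mgst3 (−2.36). Nutrient carriers were split as well, 11 higher and 9 lower of 22. Slc7a2, a carrier of cationic amino acids, was at 319, 328 and 255 normalised counts against 7.3, 7.43 and 7.77, and Slc38a3, a glutamine carrier, at 89.3, 93.4 and 98.6 normalised counts against 0.92, 3.78 and 2.24.

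Chaperones were higher in 16 of 27 cases and lower in 6, with a median of 0.48. With crystallins left out of the scaling 9 were higher and 11 lower, and under quantile normalization 6 were higher and 18 lower, with a median of −0.37. Hspa8, the constitutive Hsp70, was at 2698, 3104 and 3323 normalised counts against 676, 558 and 560. Hspb1, a small heat shock protein, was at 0.12, 0.28 and 0.35 normalised counts against 6.89, 4.85 and 5.99. Cholesterol synthesis genes were higher in 13 of 20 cases with small differences (median 0.34, and −0.10 with crystallins left out), of which Fdft1 at 150, 187 and 186 normalised counts against 76.3, 71.2 and 73.1 was the largest. Ion pumps and channels were mostly lower, in 15 of 22 cases. The calcium-permeable channel gene Trpm3, linked to inherited cataract in humans, was the outstanding exception with 868, 760 and 664 normalised counts against 2.66, 4.71 and 3.56 (7.38, SE 0.16).

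Adhesion molecules of the same families lay on both sides. Cdh1 (E-cadherin) and Ctnnd2 (delta-catenin) were higher by 3.03 (SE 0.10) and 3.56 (SE 0.13), and Cdh11, Cdh3 and Epha4 were lower, at −6.10, −4.50 and −6.20. Of the lens value of Cdh1 78.9% came from assembled transcripts that differ from the annotated ones in at least 1 junction. Cdh11, a cadherin of mesenchyme, was at 2.65, 2.14 and 1.48 normalised counts against 217, 199 and 210. Epha2, in which mutations cause human cataract, was at 105, 108 and 88.6 normalised counts against 9.04, 9.46 and 8.47. The laminin receptor chain Itga6 was at 391, 452 and 332 normalised counts against 66.8, 57.6 and 55.6, and Itga2 at 79.2, 82.8 and 66.7 normalised counts against 5.13, 5.43 and 6.34. The fibronectin receptor chain Itga5 was lower, at 15.2, 11.4 and 13.2 normalised counts against 63.2, 63.3 and 64.4.

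Of 40 genes in which mutations are linked to cataract, 29 were higher and 7 lower, with a median of 1.19. Crystallins were not in this list, but it held members of the fibre lists such as Mip, Lim2 and Hsf4. Slc16a12, a carrier of the monocarboxylate family, was at 81.6, 87.0 and 67.0 normalised counts against 3.79, 2.96 and 2.97 (4.23, SE 0.15). Among the lower were Wrn, the Werner syndrome helicase (−1.31), Gcnt2 at 0, 0.19 and 0 normalised counts against 3.83, 2.61 and 2.82, and Unc45b, a myosin chaperone listed at 0 in all lens libraries.

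**Figure D4:**
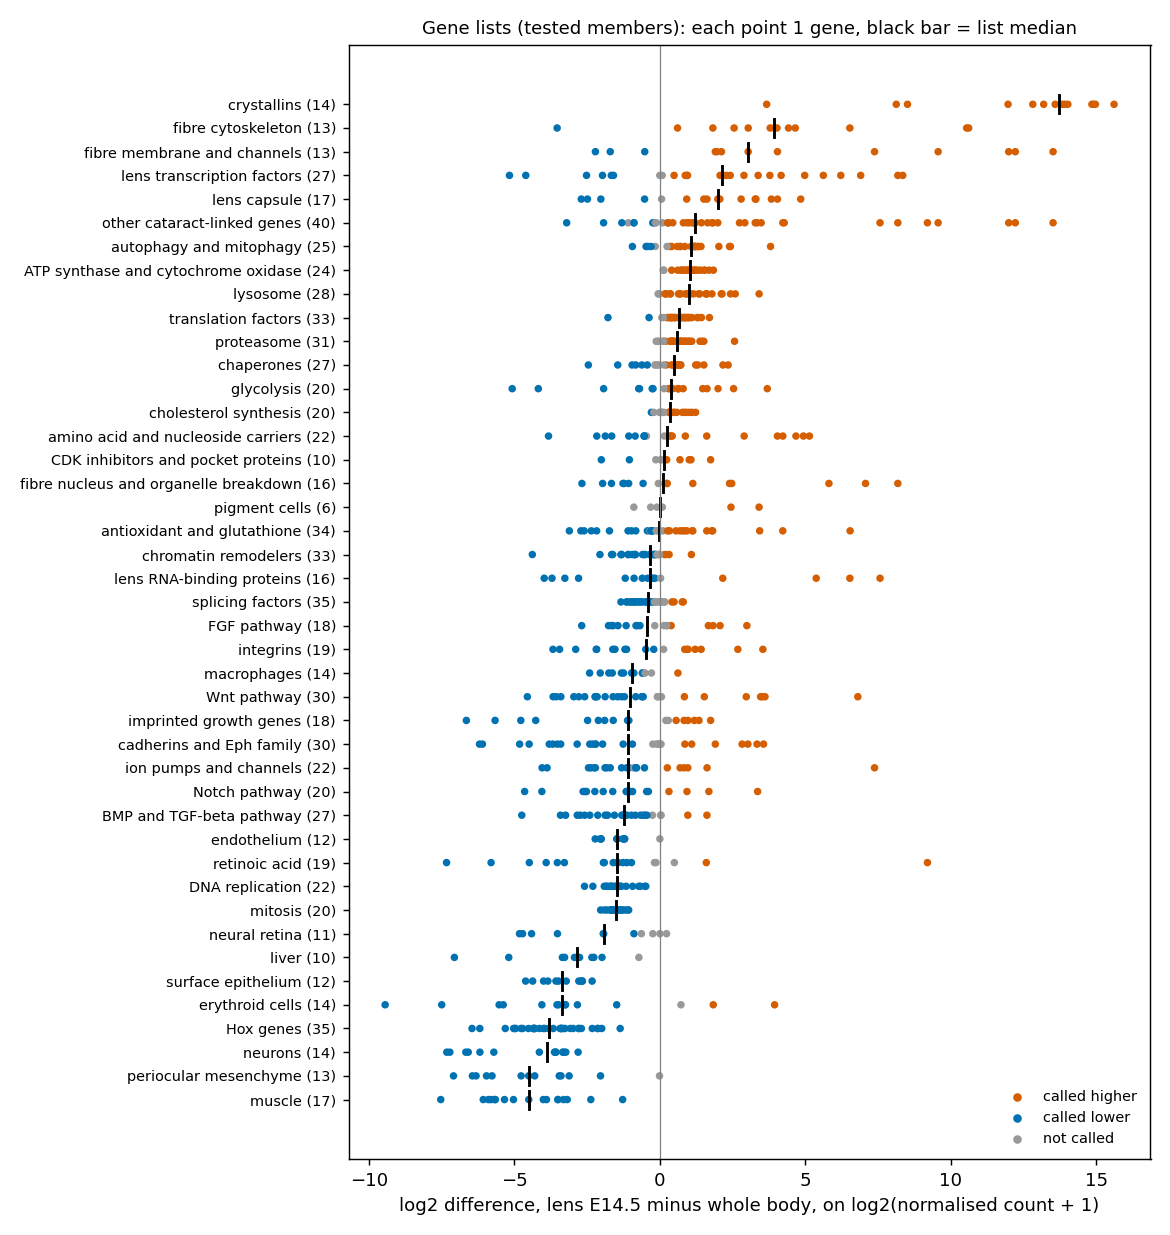
Log2 difference of lens E14.5 minus whole body on log2(normalised count + 1) for the tested members of 43 gene lists, 1 point per gene, with the number tested in parentheses and a black bar at the list median. Genes listed at 0 in a group are drawn at their fitted value, which depends on the added 1. Medians run from 13.71 for crystallins at the top to −4.51 for muscle at the bottom.

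The genes with the lowest differences included globin, muscle, neuronal and cartilage genes. Hbb-bh1, an embryonic beta-like globin, was at 2.53, 1.21 and 0.87 normalised counts against 1970, 1410 and 1783 (−9.45, SE 0.39, adjusted p = 1.55e-11), and Hba-x, the embryonic alpha-like globin, at 16.01, 4.83 and 15.41 normalised counts against 2332, 1918 and 2157. The cardiac actin gene Actc1 was at 0.12, 0.37 and 0 normalised counts against 210, 219 and 210. The neuronal genes Dcx, Nefm and Nefl, which encode cytoskeletal proteins of neurons, had differences of −7.33, −7.22 and −6.67. Col2a1, the collagen of cartilage, was at 0.84, 1.21 and 0.39 normalised counts against 267, 283 and 295, and Col1a1, the collagen of bone and dermis, at 3.12, 0 and 0 normalised counts against 177, 269 and 219. Afp, the fetal serum protein of liver and yolk sac, was at 0.46, 0.45 and 0.33 normalised counts against 181, 184 and 200. The remaining names among the lowest 15 were Crabp1, Capn6, Vcan, Dpysl3, Cxcl12 and Gm13394, a processed pseudogene listed at 0 in the lens and at 156, 139 and 145 normalised counts in the embryo.

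Hox genes give position along the trunk and were lower in 35 of 35 cases, with 33 of them listed at 0 in every lens E14.5 library. Their summed level was 0, 0.09 and 0.18 normalised counts in the lens against 628, 657 and 626 normalised counts. In the embryo Hoxd4 was at 76.2, 105 and 82.3 normalised counts and Hoxb9 was at 74.5, 68.5 and 73.6 normalised counts. The lens forms from the head, anterior to the Hox domains.

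Markers of other cell types were examined in the same way, as a check of what the dissected lenses held. The lens markers themselves (crystallins, Mip, Lim2, Bfsp1, Pax6, Foxe3 and Prox1) were all present as described. Muscle markers were lower in 17 of 17 cases and their sum was 19.3 to 22.2 normalised counts in the lens against 802 to 828. Neuron markers were lower in 14 of 14 (18.5 to 22.1 normalised counts against 991 to 1072), surface epithelium markers in 12 of 12 (1.8 to 4.08 normalised counts against 158 to 165), and liver markers in 9 of 10 (8.3 to 17.9 normalised counts against 274 to 318). The lens sums of muscle, neurons and liver consisted largely of Tnni1, Map2 and Trf, at lens means of 14.2, 17.9 and 12.6 normalised counts. Trf was not called. Of 13 markers of the mesenchyme around the eye 12 were lower. Their sum of 190 to 224 normalised counts against 1710 to 1869 consisted largely of Pdgfra, which was at 185, 175 and 171 normalised counts in the lens and 179, 178 and 178 normalised counts in the embryo and was not called (−0.01, SE 0.09). Among the markers of that list Twist1 was at 0, 0.37 and 0.17 normalised counts and Col1a1 at 0 in replicates 2 and 3. Of 11 neural retina markers 7 were lower and 4 not called. They summed to 6.41 to 8.51 normalised counts against 123 to 132, with Isl1 at 0 in all lens libraries. Of 6 pigment cell genes 2 were higher, Mitf at 21.02, 28.59 and 19.95 normalised counts against 1.06, 0.45 and 2.81, and Oca2 at 5.11, 3.11 and 5.4 normalised counts against 0. The pigment enzymes Tyr and Dct were at means of 0.16 and 0.287 normalised counts.

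Vessel and blood markers were mostly lower than in the embryo but present, and their sums were highest in replicate 1. The 12 endothelium markers summed to 160, 75.0 and 86.8 normalised counts in the lens against 323 to 329, and 11 were called lower. Kdr, a receptor for vascular endothelial growth factor, was at 23.7, 10.1 and 13.1 normalised counts and Cdh5 at 25.0, 9.47 and 13.2 normalised counts. Macrophage markers summed to 24.5, 10.9 and 11.7 normalised counts against 49.3 to 54.7, and erythroid markers to 974, 453 and 703 normalised counts against 7613 to 9731. Of 14 macrophage markers 11 were called lower and 1 higher, Lyz2, at a mean of 4.15 normalised counts against 2.29. Ptprc, at 0 in all lens libraries, had a mean of only 0.277 normalised counts in whole body and was not called. Of 14 erythroid markers 11 were called lower and 2 higher. A capillary net surrounds the lens at this age. The mitochondrially encoded mt-Co1 was also highest in replicate 1, at 13386, 8221 and 7873 normalised counts. Its difference from whole body was 1.35 and turned to −1.48 under quantile normalization. The part of these cells in the other results was not tested. Without lens E14.5 replicate 1 the 2-fold counts were 2385 higher and 3716 lower, and 96.2% and 97.2% of the 2390 and 3684 genes were shared.

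The globins also differed from gene to gene. The embryonic genes Hbb-bh1, Hba-x and Hbb-y were lower in the lens, Hbb-y at 136, 46.4 and 93.4 normalised counts against 4464, 3528 and 3799. The adult-type Hba-a2 and Hbb-bs were higher, Hba-a2 at 101, 41.8 and 82.0 normalised counts against 3.69, 3.27 and 3.98 and Hbb-bs at 388, 196 and 249 normalised counts against 87.9, 63.6 and 72.6. Near-identical copies of each exist (Hba-a1 and Hbb-bt), so the level of each copy is uncertain. Hba-a1 was lower, at a mean of 128 normalised counts against 346, so adult-type alpha globin as a pair cannot be called higher. Hbb-bt was at a mean of 109 normalised counts against 63.8 and was not called. As background, red cells of younger embryos carry embryonic globins, and here tissue and age cannot be told apart.

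Imprinted growth genes were lower in 10 of 18 cases and higher in 6, and under quantile normalization lower in 12 and higher in 3. Dlk1, Peg10 and Plagl1 were lower by 6.65, 4.78 and 4.27 (−6.65, −4.78 and −4.27). Dlk1, an inhibitor of differentiation, was at 1.09, 0.65 and 1.13 normalised counts against 197, 195 and 193. H19, a long noncoding RNA, was at 5285, 6327 and 6178 normalised counts against 3077, 3006 and 2996 and Meg3 at 437, 418 and 463 normalised counts against 158, 249 and 181. The difference of H19, 0.97, became −1.68 under quantile normalization. The elongation factor gene Eef1a1, at 10169, 10706 and 10390 normalised counts against 5788, 4931 and 5174, likewise moved from 0.98 to −1.96.

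Some genes led with different starts in lens and embryo. Among 5179 genes with more than 1 start and a value of at least 10 in both groups, 181 (3.5%) led with another start in every lens library than in every whole-body library. The lowest lens share of the lens start minus its highest whole-body share ran from 91.0 points for Ptprn2 to −12.6 points for Ltbp1. Some of the 181 are therefore near ties or have overlapping shares. The 4 named here were chosen after their values were seen and have wide gaps, of 72.4 to 84.7 points. Itga9, an integrin chain, was at 54.9, 61.0 and 53.4 normalised counts in the lens and 54.2, 47.8 and 52.7 normalised counts in the embryo, which overlapped (0.13, SE 0.11, adjusted p = 0.298). The leading start of the lens gave 80.1%, 84.4% and 90.7% of its fragments there and 0% in each embryo library. For Gpm6b, a membrane glycoprotein of neurons, the lens start gave 97.1%, 97.3% and 96.9% against 24.6%, 14.6% and 23.0%. For the zinc finger gene Prdm16 the shares were 100%, 99.5% and 100% against 14.9%, 7.3% and 6.4%, and its log2 difference of 0.86 was −1.51 when only annotated transcripts were summed. Tom1, an endosomal sorting gene, had both another leading start, at 76.6% to 77.3% against 0% to 3.6%, and a higher level, 467, 577 and 527 normalised counts against 14.04, 14.41 and 13.29. Shares of starts rest on the authors' transcript assembly. Since values are not divided by length, which start leads also depends on the lengths of its transcripts.

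Set against its neighbours, lens E14.5 was nearer to E16.5 than to E12.5. Pearson's r with the E16.5 libraries was 0.979 to 0.987, with E12.5 0.920 to 0.966 and with E10.5 0.810 to 0.825. At a minimum of 2-fold 594 genes (4.09%) were higher and 1131 (7.78%) lower than at E12.5, and 42 (0.289%) higher and 233 (1.6%) lower than at E16.5. At any fold the counts were 3088 (21.2%) higher and 3258 (22.4%) lower than at E12.5, and 586 (4.03%) higher and 868 (5.97%) lower than at E16.5. These comparisons share the E14.5 libraries. Markers of other cell types differed too. Of these, 12 of 13 for mesenchyme, 14 of 14 for macrophages and 10 of 12 for endothelium were lower than at E12.5. So were 12 of 14 erythroid, 7 of 11 neural retina, 5 of 12 surface epithelium and 4 of 6 pigment cell markers. For muscle, neurons and liver it was 1 of 17, 2 of 14 and 0 of 10. The part of these cells in the differences from E12.5, also of replication and mitosis genes, was not tested. All 14 tested crystallins were higher than at E12.5 (21.2% of all genes were), and 8 were lower than at E16.5 (5.97% of all genes). Crygf had the largest difference from E12.5, with means of 172 normalised counts at E12.5, 9523 normalised counts at E14.5 and 23655 normalised counts at E16.5 (5.92, adjusted p = 1.41e-09, and −1.30, adjusted p = 0.00655). Bfsp1 had means of 132, 3056 and 9463 normalised counts at the 3 stages. Dnase2b was at a mean of 0.317 normalised counts at E12.5, 55.6 normalised counts at E14.5 and 228 normalised counts at E16.5 (5.43 and −2.01). Eif5b, a translation initiation factor, was higher than at E12.5 by 1.77 and lower than at E16.5 by 1.20 (−1.20).

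Of the 27 lens transcription factors 10 were higher and 7 lower than at E12.5, and 1 was higher and 1 lower than at E16.5. Pax6, Foxe3 and Pitx3 had means of 371, 397 and 156 normalised counts at E12.5, 320, 459 and 186 normalised counts at E14.5 and 318, 385 and 176 normalised counts at E16.5. Foxe3 and Pitx3 were called against neither stage, and Pax6 was lower than at E12.5 by 0.21 on the log2 scale (−0.21, adjusted p = 0.00865). Hsf4 was higher than at E12.5 by 2.16, from a mean of 71.0 to 308 normalised counts. Replication and mitosis genes were lower than at E12.5 in 19 of 22 and 14 of 20 cases and higher than at E16.5 in 20 of 22 and 18 of 20. Mki67 means were 243, 199 and 127 normalised counts at E12.5, E14.5 and E16.5, of which the step to E16.5 was called (0.63, adjusted p = 0.0194) and the step from E12.5 was not (−0.28, adjusted p = 0.163). Wnt7a had means of 4.33, 132 and 193 normalised counts at the 3 stages and was higher at E14.5 than at E12.5 by 4.73 on the log2 scale (adjusted p = 6.38e-09). The macrophage marker Csf1r had a mean of 29.9 normalised counts at E12.5 and 1.76 normalised counts at E14.5.

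**Figure D5:**
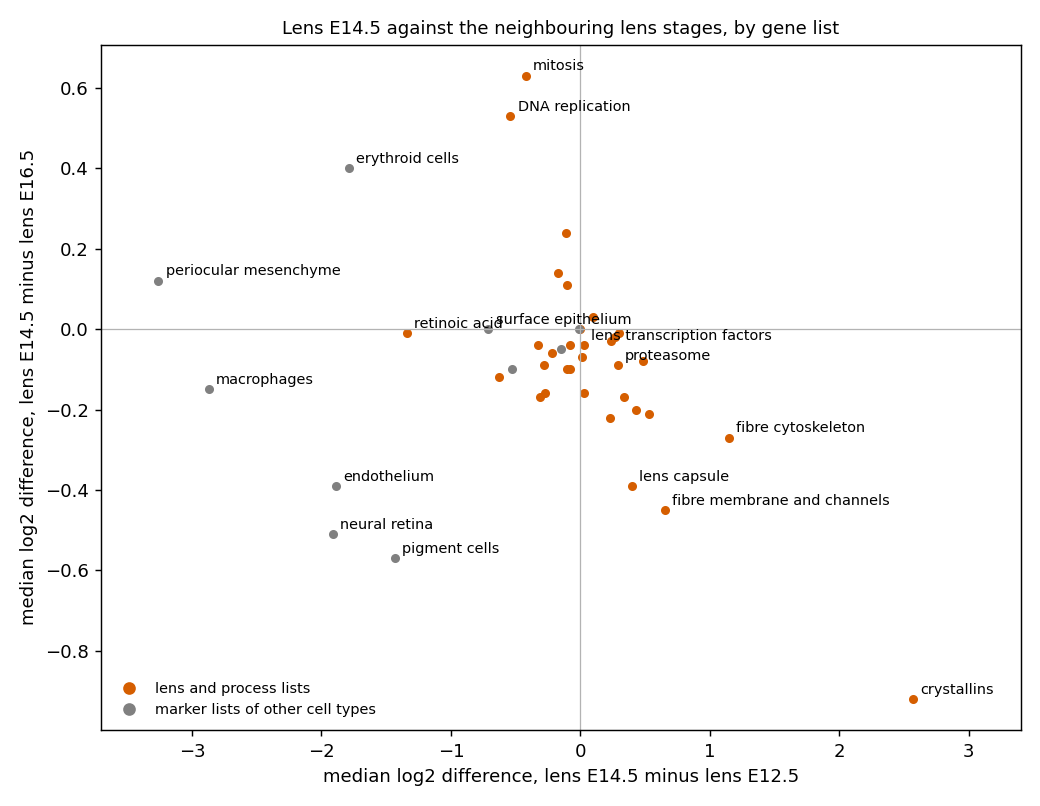
Median log2 difference of each gene list between lens E14.5 and E12.5 (x axis) and between lens E14.5 and E16.5 (y axis), on log2(normalised count + 1), with lens and process lists in orange and marker lists of other cell types in grey. Crystallins lie at 2.57 and −0.92, mitosis genes at −0.42 and 0.63.

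A level that was higher at E14.5 than in the whole embryo by at least 2-fold and also higher than at both neighbouring lens stages was found for 22 genes (0.151%), and the reverse by the same rule for 80 (0.551%). The first count depended on 1 library: without lens E14.5 replicate 1 it was 11. Slc7a11, the cystine carrier that supplies glutathione synthesis, was at 136, 112 and 107 normalised counts, with means of 50.5 normalised counts at E12.5, 71.4 normalised counts at E16.5 and 6.28 normalised counts in whole body (0.75 against E16.5, adjusted p = 0.0185). Cnih2, a protein of the AMPA receptor complex in neurons, was at 64.8, 79.6 and 69.7 normalised counts, with means of 48.8 and 42.3 normalised counts at the neighbouring stages. Matn2, a matrix protein, was at 47.8, 53.7 and 55.6 normalised counts against means of 37.99 and 35.01 normalised counts. Spryd7 was at 45.3, 42.2 and 37.0 normalised counts against 19.8 and 26.8 normalised counts. Mylk4, Fam46b, Cdkl2, Kbtbd3, Apoo and Mpp7 completed the first 10, with means at E14.5 between 10.4 and 27.7 normalised counts. The difference of Mpp7 from whole body, 1.14, was −0.77 when only transcripts matching the annotation were summed.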

How the data were processed

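RNA of microdissected mouse lenses and whole embryos had been sequenced on an Illumina instrument, per the labels' protocols. Trimmomatic, TopHat2 2.0.9, Cufflinks and Cuffnorm and the build mm10 are named in the submitters' processing notes. The authors deposited 1 table of signal values for 48306 transcripts, with no unit named. Low values of genes with 1 transcript were spaced by 1 step per library: 58.3% to 73.5% of those below 4 were whole multiples within 0.005, against 8.3% to 26.8% for evenly spread values. Transcripts at a single step ranged in length (5% to 95%) from 398 to 8359 bases in lens E14.5, so the values are fragments times a library factor, not divided by length, and are called normalised counts. The tests had been designed for FPKM. Library totals ran from 707562 to 1629915 (geometric mean 1004000); how the factor was set is not given in the sources used here. Here values were summed per gene symbol after 172 transcripts of class x, which the assembly places on the strand opposite a gene, were left out. From 14615 symbols, 80 that did not reach 1 in at least 3 libraries and 3 listed at 0 beside 50 or more in a replicate (Cryaa, Cryba1, Nufip2) were removed. limma 3.58.1 in R 4.3.3 was fitted to log2(normalised count + 1) of all 15 libraries with 1 mean per group, a trended prior and 10 residual degrees of freedom; a call is an adjusted p under 0.05. Since fragments were split between transcripts, only part of the gene values came out as whole fragments, and no count test was run. With 3 libraries a side, an exact permutation test of 1 gene cannot go below 0.10. The fit was tested on simulated data.

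The named genes are the 15 with the largest and the 15 with the lowest difference (called, value at least 10, no overlap), the 15 of highest value, up to 4 called members a direction of each of 43 lists, up to 10 genes with a peak at E14.5 and a fixed set of lens genes. The text gives a part of these, and some are not reported here. The genes and lists were chosen with earlier results of these data known. Gene coordinates are from GENCODE for GRCm38, in which 99.1% of the annotated transcripts were found, and upstream windows from RefSeq. Alternatives covered the pseudocount, filter, scaling, transcript classes, length, model and each library left out.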

Additional observations from a re-analysis of the deposited data

Results flagged for a closer look

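The 172 transcripts of class x, left out of the gene sums, are placed by the assembly on the strand opposite a gene. Whether strand was kept is not given in the sources used here, so this placement is uncertain. Of these transcripts, 19 were higher in lens E14.5 without overlap and at a normalised count of 10 or more. The transcript listed under Filip1l had a mean of 1510.3 normalised counts in lens E14.5 (1013, 1823 and 1695) and 518.2 normalised counts in whole body (842, 361 and 351). One of the 2 listed under Cpsf2 had a mean of 56.1 normalised counts against 16.4 normalised counts, and the one under Igsf9 38.9 normalised counts against 0.04 normalised counts. They stand here because they lie outside the gene values compared above and exceed the whole-body level. Whether they are transcripts of their own was not tested.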

How the results depend on the processing

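The genes higher by at least 2-fold numbered 1551 instead of 2390 with crystallins left out and totals equal, and 3738 with a 1.5-fold minimum. At any fold, 5187 became 3410 with crystallins left out. Genes lower by at least 2-fold, 3684, stayed within 1.5 times under all alternatives, from 2732 (values divided by transcript length) to 4937 (1.5-fold minimum). The 22 genes with a peak at E14.5 became 13 with a pseudocount of 0.1 and 11 with annotated transcripts alone. The 42 genes higher than at E16.5 became 90 with a pseudocount of 0.1. Values divided by transcript length, an alternative chosen after seeing the data, gave 2188 calls upward and 2732 downward at 2-fold; 620 instead of 1131 were lower than at E12.5 and 20 instead of 42 higher than at E16.5. Leaving out each lens E14.5 or whole-body library in turn gave 2361 to 2404 higher and 3617 to 3716 lower genes at 2-fold, 4936 to 5114 and 5901 to 6053 at any fold, and 11 to 20 peak genes. Against E12.5 it gave 556 to 623 higher and 1079 to 1176 lower, and against E16.5 34 to 44 higher and 200 to 239 lower.

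Replicate numbers were not used as pairs. Same-numbered lens E14.5 and whole-body libraries had correlations of their deviations from the group means of 0.008, −0.038 and 0.001. With lens E12.5 these were 0.237, −0.095 and −0.07, and with lens E16.5 0.106, 0.197 and 0.055. Such correlations cannot show whether samples were paired. With the replicate number as a block 2392 genes were higher and 3685 lower at 2-fold.

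Of 293 named genes tested, 18 lost a call under at least 1 alternative and 11 reversed. With crystallins left out Cdkn1b became −0.20, Hdac3 −0.24, Rfng −0.11, Snrpf −0.02 and Tet3 −0.12. Under quantile normalization Eef1a1 became −1.96, H19 −1.68, Hdac3 −0.08, Tet3 −0.02 and mt-Co1 −1.48. Mpp7 became −0.77 and Prdm16 −1.51 with annotated transcripts alone, and Fundc1 0.11 with values divided by length. The cause was not tested. Depth limits low values: 3 fragments are worth 0.11 to 0.12 in whole body and 0.26 to 0.36 in lens E14.5, so a gene listed at 0 may lie below these values, by counting error alone.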

Other observations

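Some of the genes that are nearly specific to the lens libraries fall outside the lists, and were chosen after their values were seen. Gje1, a connexin gene, had a mean of 748 normalised counts in lens E14.5 and 0.027 normalised counts in whole body (log2 difference 9.498), and Grifin, a galectin-related gene of lens fibres, 324 normalised counts against 0.04 normalised counts (8.29). Lenep, a lens epithelial protein gene, had a mean of 322 normalised counts and was listed at 0 in whole body (adjusted p = 5.62e-12). S100a8 and S100a9, calcium-binding protein genes of neutrophils, had the widest margins over the neighbouring stages of the 22 peak genes, but stood at 4.9, 2.97 and 4.18 normalised counts and at 5.55, 3.07 and 9.37 normalised counts in lens E14.5.

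The whole-body libraries differed in sex-linked RNA. Xist, the RNA of the inactive X chromosome, was at 245, 0.96 and 294 normalised counts in whole body replicates 1 to 3 and at 541, 335 and 309 normalised counts in the lens libraries. The Y-linked Ddx3y was at 11.3, 48.1 and 11.6 normalised counts in whole body and 26.2, 29.2 and 17.1 normalised counts in the lens, and Kdm5d, Eif2s3y and Uty were likewise highest of the whole-body libraries in replicate 2.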
